A study of Mus musculus with 3 samples.

Results

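*Fbxo32*, *Trim63*, *Foxo1* and *Foxo3*, the main ubiquitin ligase genes of muscle atrophy and the genes of the FoxO factors known to drive them, were examined for H3K27ac in aging mouse TA muscle. The members were all H3K27ac peaks that overlapped 1 fixed mm9 window around each gene, and 91 of the 97857 deposited peaks did. The windows were chr15:57950000-58120000 for *Fbxo32*, chr4:133830000-133930000 for *Trim63*, chr3:52000000-52200000 for *Foxo1* and chr10:41850000-42050000 for *Foxo3*. The data consisted of ChIP-seq of the histone mark H3K27ac with the antibody ab4729 (Abcam) in TA muscle of C57/BL6 mice of 2, 10 and 20 months, with 1 library per age. The study's methods give the middle age as 10 to 12 months, no treatment is named in the labels, and how many mice went into a library was not given in the sources used here. The tissue label named TA muscle, whereas the extraction protocol spoke of activated satellite cells and of RNA, and defining markers of muscle were not checked because no mm9 gene positions were used. With 1 library per age there were no replicates, so no test of age was made, and every interval below is a 95% interval that covers counting error only.

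H3K27ac is an acetylation of histone H3 found at promoters and enhancers in use. FoxO factors are transcription factors that insulin and IGF signalling hold out of the nucleus through Akt, and when this signalling falls they enter the nucleus and activate genes of protein breakdown. Among these genes are *Fbxo32*, which encodes atrogin-1, and *Trim63*, which encodes MuRF1, both E3 ubiquitin ligases that mark muscle proteins for the proteasome. The TA is a muscle of the lower leg whose chromatin comes from myofibers and from the fibroblasts, vessels, immune cells and satellite cells around them. In such bulk tissue, fewer cells of a type and less signal per cell cannot be told apart.

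The promoter sequences of *Trim63*, *Foxo1* and *Foxo3* are shown because the *Trim63* promoter carries the letters that FoxO factors are known to bind. Each sequence holds the 250 bases before the start of the gene, taken from RefSeq on GRCm38.p6 and written 5′ to 3′ on the strand of the gene. They lie at chr4:134314870-134315119 (plus strand) for *Trim63*, chr3:52268087-52268336 (plus strand) for *Foxo1* and chr10:42276696-42276945 (minus strand) for *Foxo3*, and they were not placed against the mm9 peaks. Capitals mark matches to GTAAACA, the DAF-16 family binding element, to its core TAAACA and to AGAACA, a half-site of the glucocorticoid receptor, on either strand.
Trim63: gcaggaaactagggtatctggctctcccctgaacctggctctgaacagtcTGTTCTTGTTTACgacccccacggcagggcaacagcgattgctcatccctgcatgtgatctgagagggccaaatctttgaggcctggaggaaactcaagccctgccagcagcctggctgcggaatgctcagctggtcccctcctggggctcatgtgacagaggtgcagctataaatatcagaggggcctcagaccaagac
Foxo1: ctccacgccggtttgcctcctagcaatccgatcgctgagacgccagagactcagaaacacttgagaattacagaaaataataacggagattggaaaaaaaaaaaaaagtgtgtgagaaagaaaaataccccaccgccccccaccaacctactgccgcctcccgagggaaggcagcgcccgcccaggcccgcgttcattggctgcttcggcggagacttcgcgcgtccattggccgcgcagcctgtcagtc
Foxo3: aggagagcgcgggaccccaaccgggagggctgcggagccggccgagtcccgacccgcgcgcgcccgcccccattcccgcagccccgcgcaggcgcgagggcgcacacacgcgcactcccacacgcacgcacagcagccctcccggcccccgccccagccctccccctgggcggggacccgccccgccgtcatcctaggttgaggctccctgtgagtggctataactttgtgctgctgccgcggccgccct
The *Trim63* promoter held GTAAACA on the reverse strand at bases 194 to 188 before the start. It also held AGAACA on the reverse strand at bases 200 to 195, directly beside the first. GTAAACA was found in 3.17% of 32851 promoters of this length, its core TAAACA, which overlaps every GTAAACA, in 12.0%, and AGAACA in 16.1%. The E-box letters CANNTG occurred 3 times in the *Trim63* promoter, once in that of *Foxo1* and not in that of *Foxo3*, and in 66.2% of all promoters. GC content was 56.8% for *Trim63*, 56% for *Foxo1* and 76.4% for *Foxo3*, against a median of 52.4%. Of 24 other genes of the FoxO and Akt pathway, 19 had a promoter in the RefSeq table, and GTAAACA was found in that of *Akt1* alone (3.54% of 27025 genes with a promoter). TAAACA was found in 5 of the 19 (*Gabarapl1*, *Ctsl*, *Cdkn1b*, *Akt1* and *Akt2*; 13.5% of all genes), AGAACA in that of *Cat* alone (18.2%), and CANNTG in 12 (69.3%). A match is a run of letters and does not show binding, and peaks at these 24 genes were not counted here.

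The windows held more peaks in the older libraries, as did the whole lists. There were 17, 34 and 40 of them in order of age, which was 0.0951% (0.0554 to 0.152), 0.0965% (0.0669 to 0.135) and 0.0894% (0.0639 to 0.122) of the 17884, 35221 and 44752 peaks of the 3 lists. The share of the lists that fell in these windows thus differed by less than its exact binomial interval. They covered 7252 bp at first and 14968 bp and 17697 bp at the later ages. Depth moved with age in the same order, with about 15930000, 18890000 and 26300000 reads behind the 2-, 10- and 20-month lists, as derived from the files. The part of this depth in the number of peaks was not tested.

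Peak numbers differed between the 4 windows in the older libraries, while the exact intervals of their shares of the lists overlapped. Peaks in the *Fbxo32* window numbered 4, 9 and 14 at 2, 10 and 20 months. Those in the *Trim63* window numbered 4, 11 and 12, those in the *Foxo3* window 5, 10 and 9, and those in the *Foxo1* window 4, 4 and 5, while the whole lists differed from that of 2 months by 1.97-fold at 10 months and 2.50-fold at 20 months. With lists cut by q to equal length the windows held 4, 5 and 4 peaks for *Fbxo32*, 4, 4 and 5 for *Trim63*, 4, 1 and 1 for *Foxo1* and 5, 6 and 4 for *Foxo3*. The larger numbers at the ligase genes were then not seen, and those of *Foxo1* were lower at the later ages. Such a cut removes the difference in list length by design. The q behind it also rests on a background of another kind at 2 months, so the cut cannot decide on a difference between ages. The covered length in the *Foxo1* window was the only one of the 4 that was lower at each later age, at 1877 bp, 1710 bp and 1531 bp. In the *Trim63* window it was 1514 bp, 5876 bp and 5971 bp, a 3.88-fold difference between 10 and 2 months against 2.88-fold for the whole lists. With lists of equal length this difference was smaller, at 1514 bp and 2800 bp.

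Peaks that touched between lists were merged, which gave 49 regions in the windows among 52684 in the genome, numbered within each window from its lower coordinate. A peak at all 3 ages was found in 12 regions, 24.5% against 20.1% of all regions. A peak at 10 and 20 months but not at 2 months was found in 14 (28.6% against 33.8%), at 20 months alone in 12 (24.5% against 24.6%), at 10 months alone in 6 (12.2% against 10.4%) and at 2 months alone in 4 (8.16% against 8.12%). All these shares lay near those of the whole genome, so the mix of early and late regions was not a result about these genes. The remaining region, of *Foxo1*, had a peak at 2 and 20 months. Of all 49 regions, the windows of *Fbxo32* and *Trim63* held 14 each, that of *Foxo3* 13 and that of *Foxo1* 8. The 4 regions with a peak at 2 months alone belonged to *Foxo1* and *Foxo3*, and 10 of the 12 with a peak at 20 months alone to *Fbxo32* and *Trim63*, a difference that was not tested. Its first part rested on how closely peaks were split, since merging peaks within 1 kb left 0 regions seen only at 2 months. The same merging brought the 12 regions seen only at 20 months to 6 over all 4 windows. These were regions 4, 10 and 11 of *Fbxo32*, region 7 and the joined regions 8 and 9 of *Trim63*, and region 1 of *Foxo3*. Most of them thus still lay in the windows of *Fbxo32* and *Trim63*, but the share of all merged regions in these windows was not counted.

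**Figure D1:**
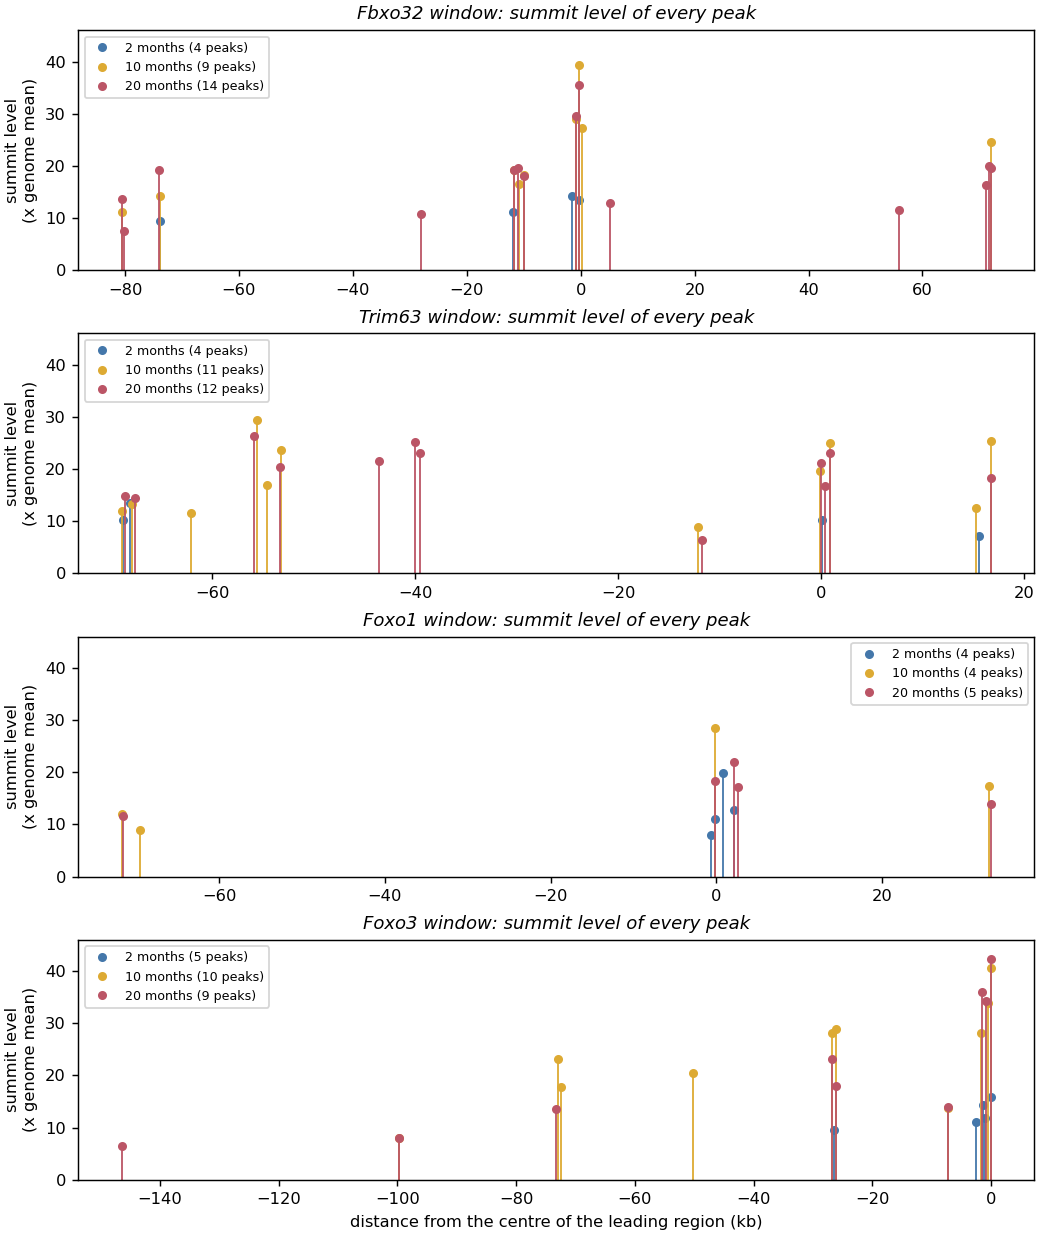
Summit level of all 91 peaks (times the mean coverage of the genome) in the windows of the 4 genes, against the distance in kb from the centre of the region with the highest mean level over the ages; colors stand for the 3 ages. The highest summits reached 39.2 for *Fbxo32* and 42.3 for *Foxo3*, and at *Foxo1* the peaks of 2 months crowd within 4 kb of the centre.

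The height of a peak was measured as its summit level, the reads at its summit as a multiple of the genome's mean coverage in that library (1.26, 2.24 and 2.50 reads at 2, 10 and 20 months). A level of 1 is therefore the mean of the genome, and because a level refers to a single base it does not depend on the width of a peak. A comparison of levels between ages also rests on the scale, since the mean coverage contains the fragment length. Ratios on the RPM scale, which divides by the number of reads, are therefore given as a second scale. RPM is not free of the fragment length either, since the summit reads are a pileup of fragments. Over all peaks of a list the median level was 11.1, 15.6 and 14.0 in order of age.

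*Fbxo32* carried a strong H3K27ac domain in both older libraries, whose summit was higher than at 2 months. Its leading region (region 9, 58046603 to 58047450, 848 bp) held 17, 88 and 89 summit reads at 2, 10 and 20 months, which are levels of 13.5 (7.85 to 21.6), 39.2 (31.5 to 48.3) and 35.5 (28.5 to 43.7). Both later ages stood above 2 months without overlap of the intervals, by 2.91-fold (1.72 to 5.22) and 2.64-fold (1.56 to 4.73), while 20 and 10 months differed by less than counting error (ratio 0.906, 0.667 to 1.23), although the ratio on the RPM scale, with reads scaled to the library total, was 0.726 (0.535 to 0.987). Only 1.32% of the peaks at 10 months and 3.01% at 20 months had a higher summit, against 21.6% at 2 months. Region 8, which lay just before it, had levels of 14.3, 29.0 and 29.6, so its 2 later ages were also alike to within counting error. Its ratios to 2 months were 2.03 (1.19 to 3.64) and 2.07 (1.22 to 3.68). Its summit of 2 months, however, lay 619 bp and 713 bp from those of 10 and 20 months. The other regions present at all ages were weaker. Region 5 had levels of 11.1, 19.2 and 19.2, and region 3, at the far end of the window, had 9.52, 14.3 and 19.2.

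Regions 6 and 7, between region 5 and the leading domain, had a peak only at 10 and 20 months. Their levels at these ages were 16.5 and 19.6 for region 6 and 18.3 and 18.0 for region 7, and those of region 1 were 11.1 and 13.6. None of the 3 differed between these ages by more than counting error.

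The signal around *Fbxo32* was also broad. At 10 and 20 months the background that the peak caller set for a peak was the library's own coverage in the 10 kb around the summit, so it gave a second and better counted measure of the domain. Its highest value in the *Fbxo32* window was 10.3 times the genome mean at 10 months (1043 reads) and 9.91 times at 20 months (1394 reads), and 2.60% and 2.34% of all peaks had a higher one. No such value could be had at 2 months, where the background stood at the genome mean for 78.3% of peaks and was of another kind. Of the 6 regions of *Fbxo32* with a peak at 20 months alone, the highest was region 13 (58118470 to 58118787) with a level of 20.0 (14.8 to 26.3). The other 5 had levels of 7.59 to 16.4. Region 13 lay 400 bp from a peak of 10 months, in a group of regions whose highest level was 24.5 at 10 months and 20.0 at 20 months. This group ended at the edge of the window, and *Wdyhv1* and *Klhl38* flank *Fbxo32* in the gene order of GRCm38, so peaks there may belong to a neighbour.

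The *Trim63* window showed several separate places of H3K27ac, and the strongest of them in the older libraries had no peak at 2 months. Its leading region (region 12, 133911119 to 133912144) held 13, 44 and 53 summit reads at 2, 10 and 20 months, levels of 10.3 (5.49 to 17.6), 19.6 (14.3 to 26.3) and 21.2 (15.9 to 27.7). The ratio to 2 months was 1.90 (1.01 to 3.85) at 10 months and 2.05 (1.10 to 4.11) at 20 months. Region 14 was a near tie, with a mean level over the ages of 17.0 for both, and its levels were 7.14, 25.4 and 18.4. Its ratio of 3.56 (1.75 to 8.18) at 10 over 2 months was the highest of the 12 regions, but the summits of the 2 ages lay 1222 bp apart. Region 2, in contrast, was flat at 13.5, 13.4 and 14.4, and was the region with the highest level of *Trim63* at 2 months. Region 1 had levels of 10.3, 12.0 and 14.8.

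Region 4 (133855559 to 133856240) had a level of 29.4 (22.8 to 37.4) at 10 months and 26.4 (20.4 to 33.5) at 20 months. Region 6 had levels of 23.6 and 20.4, and region 13, next to the leading region, 25.0 and 23.2. In these 3 regions a peak at 2 months would have needed 8 reads, a level of 6.34, over a background at the genome mean. Regions 7, 8 and 9 (133868043 to 133872243) had a peak at 20 months alone, with levels of 21.6 (16.2 to 28.1), 25.2 (19.3 to 32.2) and 23.2 (17.6 to 29.9). The 10 kb around them stood at 9.27, 9.20 and 8.88 times the genome mean, and 3.10% of the peaks of that list had more than the first of these. Had the 10-month library held the same coverage in these 10 kb, its summits would have needed levels of 17.8, 17.8 and 17.4 to be called, the first of which lay inside the interval of 20 months for its region and the others below theirs. No peak of 10 months lay within 5 kb, and over a background at the genome mean a level of 4.46 sufficed. The other regions of *Trim63* were lower. Regions 3, 5 and 10 had a peak at 10 months alone with levels of 11.6, 16.9 and 8.92, and region 11 had one at 20 months alone with a level of 6.39. *Trim63* lies between *Pdik1l* and *Slc30a2* in the gene order of GRCm38. Without mm9 gene positions no region of this window, the leading one included, could be assigned to *Trim63* rather than to a neighbour.

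**Figure D2:**
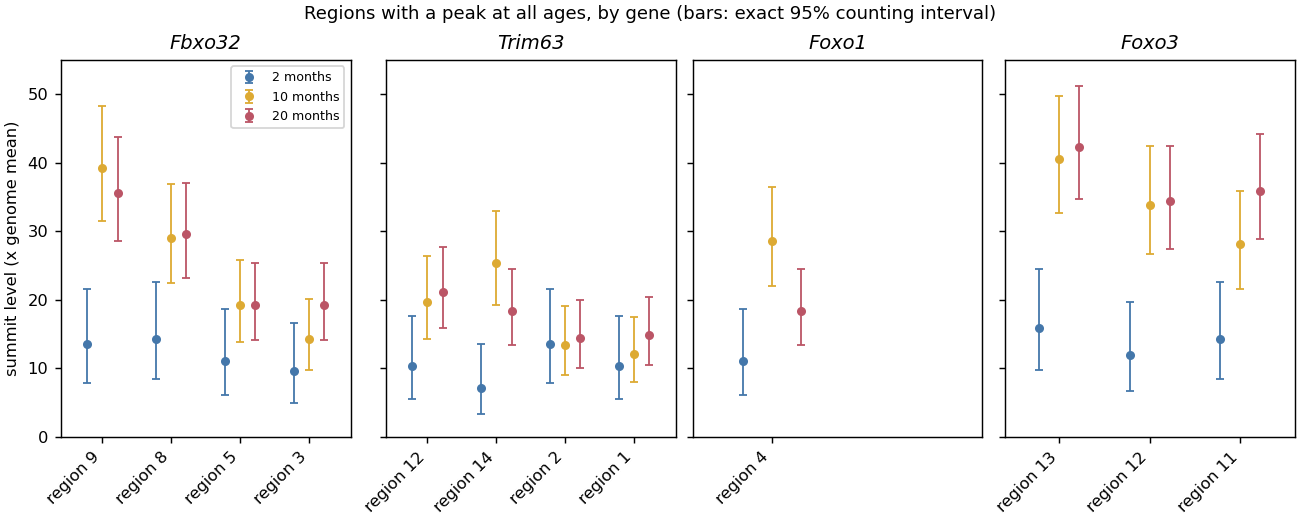
Summit level (times the genome mean) of the 12 regions with a peak at all 3 ages, by gene and in order of their mean level; points are the single library of each age and bars its exact 95% counting interval. The leading regions of *Fbxo32* and *Foxo3* at 10 and 20 months lie above their intervals of 2 months, and region 2 of *Trim63* is level at 13.5, 13.4 and 14.4.

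*Foxo1*, a FoxO gene known to be induced by fasting in muscle, differed from the other genes in the layout of its peaks. Its only region with a peak at all ages (region 4, 52071522 to 52072072) held 14, 64 and 46 summit reads, levels of 11.1 (6.07 to 18.6), 28.5 (22.0 to 36.4) and 18.4 (13.5 to 24.5) at 2, 10 and 20 months. The level was 2.57-fold higher at 10 than at 2 months (1.43 to 4.96), 1.65-fold higher at 20 than at 2 months (0.894 to 3.26, an interval that includes 1, against 1.99 and 1.08 to 3.92 on the RPM scale) and lower at 20 than at 10 months, with a ratio of 0.644 (0.431 to 0.955). The summits of the 3 ages lay within 10 bp of each other. The strongest peak of 2 months in all 4 windows stood beside it (region 5, 52072375 to 52073320), with 25 reads and a level of 19.8 (12.8 to 29.3), and 4.01% of that list was higher. It had no counterpart at 10 or 20 months. Region 6, beyond it, had a peak of level 12.7 at 2 months and 22.0 at 20 months, a ratio of 1.73 (0.978 to 3.24) whose interval includes 1 (2.08, 1.18 to 3.89, on the RPM scale), and region 7 had one of level 17.2 at 20 months alone. Away from this place the peaks of *Foxo1* were few and came from the older libraries. Region 8 had levels of 17.4 and 14.0 at 10 and 20 months, region 1 had 12.0 and 11.6, and region 2 had 8.92 at 10 months alone.

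The missing counterpart of *Foxo1* region 5 could not be read as a loss. The nearest peaks of 10 and 20 months lay 908 bp and 901 bp away and had backgrounds of 7.20 and 6.28 times the genome mean. Over these, a summit needed a level of 15.2 (34 reads) at 10 months and 13.2 (33 reads) at 20 months to be called, and both values lay within the interval of 2 months. Regions 3 to 7 of *Foxo1* together spanned 3.66 kb, and their highest levels were 19.8, 28.5 and 22.0. When peaks within 1 kb were merged, which made them 1 region, the 10 over 2 months ratio of *Foxo1* was 1.44 (0.894 to 2.39), an interval that includes 1. Its 20 over 10 months ratio was then 0.770 (0.527 to 1.12), an interval that also includes 1. The merged region takes the highest summit of each age, at 52072571, 52071663 and 52073897 for 2, 10 and 20 months. These ratios thus compared different summits and do not bear on the lower level of region 4 itself at 20 months. For the other 3 regions with a peak at 2 months alone, 1 of *Foxo1* and 2 of *Foxo3*, the level needed later was 1.34 to 1.91 times that of 2 months. *Foxo1* lies between *Maml3* and *Cog6* in the gene order of GRCm38, and peaks of its window may likewise belong to a neighbour.

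*Foxo3*, which encodes the FoxO factor best known for inducing the atrophy ligases, carried the highest summit of all 4 windows. Its leading region (region 13, 41997692 to 41997971) held 20, 91 and 106 summit reads, levels of 15.9 (9.69 to 24.5), 40.6 (32.7 to 49.8) and 42.3 (34.7 to 51.2). The ratio to 2 months was 2.56 (1.56 to 4.38) at 10 months and 2.67 (1.64 to 4.55) at 20 months, and 20 over 10 months was 1.04 (0.781 to 1.40). Higher summits were found in 0.999% of the peaks at 10 months and 0.936% at 20 months, against 10.9% at 2 months. Regions 11 and 12, just before it, were also higher at both later ages than at 2 months, and in all 3 regions the difference between 10 and 20 months was within counting error. Region 12 had levels of 11.9, 33.9 and 34.4, and region 11 had 14.3, 28.1 and 35.9.

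A further group of *Foxo3* regions was strong at 10 months and lower at 20 months. Region 8 (41971478 to 41971801) had a level of 29.0 (22.4 to 36.9) at 10 months and 18.0 (13.1 to 24.1) at 20 months, a ratio of 0.620 (0.414 to 0.921). Region 3 (41924528 to 41925051) had levels of 23.2 (17.3 to 30.4) and 13.6 (9.40 to 19.0), a ratio of 0.586 (0.369 to 0.920). Region 6, next to region 8, had levels of 28.1 and 23.2, with a ratio whose interval includes 1 (0.825, 0.567 to 1.20). Region 5 (41947517 to 41947828), between these groups, had a peak at 10 months alone with a level of 20.5 (15.0 to 27.4). The nearest peak at 20 months lay 23.1 kb away. With the coverage of 10 months in the 10 kb around it, a summit needed a level of 14.0 at 20 months to be called, a value below the interval of 10 months. The remaining *Foxo3* regions were weaker, and where both older libraries had a peak they differed by less than counting error. Region 9 had levels of 13.8 and 14.0 at 10 and 20 months and region 2 had 8.03 and 7.99. Region 4 had a peak at 10 months alone (17.8), region 1 at 20 months alone (6.39) and regions 7 and 10 at 2 months alone (9.52 and 11.1). *Foxo3* lies between *Armc2* and *Afg1l* in the gene order of GRCm38, and peaks of its window may likewise belong to a neighbour.

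Across the 12 regions that every age shared, the level at 10 months was a median 2.00 times that at 2 months, and 11 of 12 were higher. At least a 2-fold higher level was found in 6 of the 12, against 47.1% of the 10598 such regions of the genome, whose median ratio was 1.95. At 20 over 2 months the median was 2.06, all 12 were higher and 8 were higher by at least 2-fold, against 54.4% and a median of 2.08 in the genome. The interval of the ratio lay above 1 in 8 of the 12 regions at each later age. The difference at these 4 genes was thus near that of the genome as a whole. By window, the median 20 over 2 months ratio was 2.67 in the 3 regions of *Foxo3*, 2.04 in the 4 of *Fbxo32*, 1.74 in the 4 of *Trim63* and 1.65 in the 1 of *Foxo1*, and the ratios of *Fbxo32* (1.73 to 2.64) and *Trim63* (1.07 to 2.57) overlapped those of *Foxo3* (2.52 to 2.89).

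**Figure D3:**
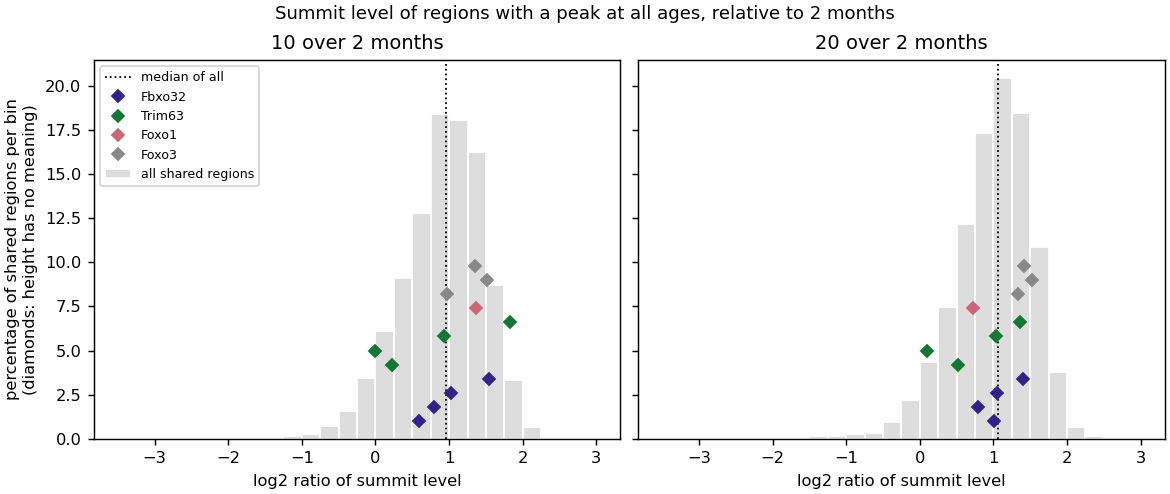
Distribution of the log2 ratio of summit level at 10 over 2 months and at 20 over 2 months over the 10598 regions that every age shared in the genome (grey bars, percentage of regions per bin; dotted line, median), with the 12 regions of the 4 genes as diamonds. The diamonds lie on both sides of the median, and 1 region of *Trim63* lies just below 0 at 10 months.

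The RPM scale moved these ratios. It divides the summit reads by the library's number of reads, while the mean coverage also contains the fragment length. That length was 148, 222 and 178 bp at the 3 ages. The summit reads themselves are a pileup that grows with the fragment length, so RPM leaves this difference between libraries in its ratios. Which scale is nearer to the amount of the mark was not tested. On the RPM scale every 10 over 2 months ratio is 1.5 times larger, every 20 over 2 months ratio 1.20 times larger and every 20 over 10 months ratio 0.802 times as large. The median of the 12 regions was then 3.00 at 10 over 2 months and 0.827 at 20 over 10 months, and region 2 of *Trim63*, flat in level, had a ratio of 1.49 (0.795 to 2.88) at 10 over 2 months. The order among genes is not touched by the scale.

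Between 10 and 20 months the ratios of the 4 genes centred near 1, with lower values at single regions of the FoxO genes, which on the RPM scale were lower still. Of the 26 regions with a peak at both ages, 3 were at least 1.5-fold lower at 20 months (region 4 of *Foxo1* and regions 3 and 8 of *Foxo3*), against 2.69% of 28428 regions of the genome. None was at least 1.5-fold higher, against 2.94%. The median ratio was 0.989 in the windows and 1.01 in the genome. On the RPM scale 7 of the 26 were at least 1.5-fold lower, against 17.6% of the genome, and these were 2 regions of *Foxo1*, 3 of *Foxo3* and region 14 each of *Fbxo32* and *Trim63*, so the restriction to the FoxO genes rested on the scale.

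The coverage in 10 kb around the summits gave ratios near 1 as well, with narrower intervals, and since the fragment length cancels in it, these ratios are the same on the RPM scale. Its median ratio at 20 over 10 months was 0.967 in the 26 regions and 0.968 in 27572 regions of the genome. It was at least 1.25-fold lower in 3 of the 26, against 6.41% of the genome, and at least 1.25-fold higher in none, against 1.87%. The 3 were region 4 of *Trim63* with 0.775 (0.699 to 0.860) and regions 6 and 8 of *Foxo3* with 0.741 (0.673 to 0.816) and 0.730 (0.663 to 0.805). Regions 6 and 8 share most of their 10 kb and count as 1 place. The *Fbxo32* regions stayed between 0.872 and 1.07, and those of *Foxo1* between 0.873 and 0.982.

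The lower coverage of regions 6 and 8 of *Foxo3* was not shared by the leading regions 26.3 kb away. Region 12 had a ratio of 1.11 (1.01 to 1.23), and regions 11 and 13, whose 10 kb overlap that of region 12, had 1.09 (0.989 to 1.19) and 1.09 (0.987 to 1.20), intervals that include 1. The 10 kb around region 6 held 1.19 times the coverage of that around region 12 at 10 months and 0.792 times at 20 months, so the balance between the places shifted by 0.666 (0.581 to 0.762). This ratio is taken within each library, so the depth and the scale of the libraries cancel in it. In the *Trim63* window the balance of region 4 to region 12 shifted by 0.830 (0.714 to 0.964). The like shifts in the *Foxo1* window (region 4 to region 8, 0.889, 0.764 to 1.03) and in the *Fbxo32* window (region 14 to region 9, 0.895, 0.789 to 1.02) had intervals that include 1. These 4 pairs were chosen after the values had been seen and are a description.

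**Figure D4:**
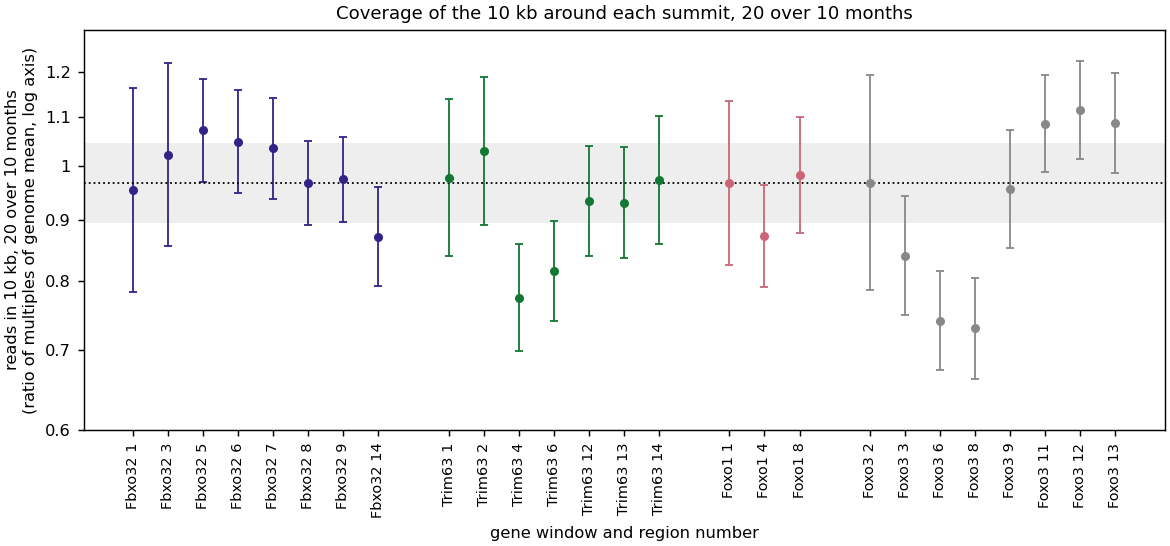
Ratio at 20 over 10 months of the coverage in the 10 kb around each summit (in times the genome mean, log axis) for the 26 regions with a peak at both ages, by gene; bars are exact 95% counting intervals. The dotted line is the median of 27572 regions of the genome (0.968) and the grey band its quartiles (0.898 and 1.04), and the intervals of region 4 of *Trim63* and of regions 6 and 8 of *Foxo3* lie wholly below the band.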

How the data were processed

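H3K27ac ChIP-seq was analysed from 3 peak lists of TA muscle (2, 10 and 20 months, 1 library per age), grouped by the sample titles. The submitters' processing notes name mm9, Bowtie2 (version not given in the sources used here) and MACS2 2.1.0, and whether a control library entered the mouse peak calling is not given. Each deposited list holds, per the file columns made by the authors, the fold of a peak (its summit pileup as a ratio to background) with its −log10 p, −log10 q and score. The authors' deposited position of each peak and its summit was used as given. The score follows the −log10 q and was used no further, and the −log10 q was used only to rank peaks within a list.

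Summit reads (a whole number) and background were solved from the deposited fold and −log10 p of a peak (tolerance 0.001). This succeeded for 17884 of 17884, 35220 of 35221 and 44751 of 44752 peaks. Tested on simulated data, the step recovered 100% of 1996, 1987 and 1984 peaks. Genome mean coverage was the background shared by peaks at the floor, and implied depth was this mean times the genome size preset (1.87 Gb) over the fragment length, taken as the smallest peak width (148, 222 and 178 bp). Above the floor, the background was a whole count (within 0.05) of a library's reads in 10 kb in 100% of peaks of the older libraries and in 3.38% of those of 2 months, so folds and p were not compared between ages. Levels have exact Poisson and ratios exact conditional binomial 95% intervals, and shares exact Clopper-Pearson intervals. Reads without molecular identifiers are not independent molecules, so these intervals cover counting error only.

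Peaks sharing at least 1 bp were merged into regions. A region's level is that of its highest summit, and its ages are those with a peak. A level needed for a call was found from the smallest −log10 p in a list and the background of the nearest peak of that age within 5 kb, or else the genome mean. All 4 genes were named, with every region present at all ages and the highest of the others. Members, lists and tests were chosen with earlier results of these data known. The 10-kb reads, levels needed for a call and the pairs within windows were chosen after the data were seen. Motifs were searched on both strands of the 250 bases before each start in RefSeq promoters of GRCm38.p6, and Fbxo32 had no entry there. Gene order came from the RefSeq table of the same organism, and no mm9 genome or annotation was used, so distances to gene starts are not given. Alternatives were a stricter threshold (the best 50% by q), equal list lengths (17884 peaks), a minimum width (222 bp), a minimum level (10 times the mean), merging within 1 kb, RPM, and other choices of region. Computation was in Python 3.11.15 with scipy 1.17.1, numpy 2.4.6 and pandas 2.3.3, and plots were drawn with matplotlib 3.10.9.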

Additional observations from a re-analysis of the deposited data

How the results depend on the processing

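The windows held 17, 34 and 40 peaks at 2, 10 and 20 months, and these numbers moved with the threshold. The best 50% of each list by q left 10, 15 and 18 peaks, merging of peaks within 1 kb left 9, 21 and 26, and lists cut by q to the length of the 2-month list left 16 at 10 months and 14 at 20 months. No excess over 2 months was left by that last cut, which removes the difference in list length by design and so does not test it. The covered length of 14968 bp and 17697 bp at 10 and 20 months came to 7802 bp and 10686 bp under this threshold and to 8174 bp and 9236 bp with lists of equal length. On the RPM scale the median ratio of the regions shared by all ages was 3.00 at 10 over 2 months and 0.827 at 20 over 10 months. With the *Trim63* region that led at 2 months in place of the one that led over all ages, its ratio was 0.992 at 10 over 2 months, which turned the direction, and 1.07 at 20 over 2 months. RPM also carried the *Fbxo32* leading region at 20 over 10 months to 0.726 and that of *Foxo1* at 20 over 2 months to 1.99, both with intervals that no longer include 1, and raised the regions at least 1.5-fold lower at 20 months from 3 to 7. The other 71 values that answer a comparison, these 2 included, counted as unchanged. Peak numbers and covered lengths among them stayed within 1.5 times their main value, and ratios of leading regions within their counting interval. Median ratios stayed within an interval set by the ranks of the shared regions, which takes regions as its units and does not measure a spread between animals. By merging within 1 kb, regions with a peak at 10 and 20 months went from 14 to 9, at 20 months alone from 12 to 6, at 10 months alone from 6 to 3 and at 2 months alone from 4 to 0. Regions merged within 1 kb and without the 2-month list, and the 2 other choices of regions for the 10-kb reads, and RPM for the count of lower regions, were added after seeing the data. No paired analysis was possible because each age has 1 library and the labels carry no replicate numbers, and for the same reason no replicate could be left out. Depth limits the 2-month library most, where leading summits rest on 13 to 20 reads and a peak absent from the list may lie under the 8 reads a call needed. Of the 32 regions without a peak at 2 months, that height was under 0.5 times the later level in 22.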
